A study of Mus musculus with 2 samples.

Results

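MicroRNA genes gave their names to 1267 Usp39 peaks in AML12 cells, beside 34713 named for other genes, or 3.52% of the list (95% Wilson interval 3.34 to 3.72%). The rule for the members used gene symbols and no measured value. They were the 176 genes in the gene table, beside 4828 others, whose symbol began with Mir and a digit or with Mirlet7 and did not end in hg, together with every peak that carried such a symbol. Only 36 of these peaks, 2.84% (2.06 to 3.91%), touched the hairpin they were named for, or 4.97% without the 10 genes with the most peaks and 4.51% where the p-value was at most 1e-05. Of all 1267 peaks, 1053, 83.1% (80.9 to 85.1%), lay inside an annotated gene other than a microRNA. The gene that holds the hairpin held 751 of the peaks, 59.3% (56.5 to 61.9%), and among these host genes were the lipid genes Scd2, Fads1, Srebf1 and Srebf2.

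AML12 is an immortalized mouse hepatocyte line, and here the cells carried a vector from which doxycycline switched on FLAG-tagged Usp39, a protein of the spliceosome's U4/U6.U5 tri-snRNP. Cells of both libraries were grown with dexamethasone and induced for 72 h, a paraformaldehyde cross-link of 5 min was used, and RNA bound to the tagged protein in nuclei was recovered with anti-FLAG beads and sequenced (RIP-seq). There was 1 immunoprecipitated (IP) library and 1 Input library without antibody, and the bait was an overexpressed, tagged protein. The study says that RIP-seq samples came from several independent experiments, but the list has no values per experiment, so the spread between them could not be given. The peak list named neither library, its coordinates were those of mm10, and it held no read counts and no strand, so the depth behind a peak was unknown and intervals covered counting error only. None of 8 hepatocyte markers (Alb, Ttr, Apoa1, Apoe, Afp, Hnf4a, Fgb and Serpina1a) had a named peak, so the labelled cell type could not be checked in this list.

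A microRNA is cut from a hairpin in a longer primary transcript, first in the nucleus by Drosha with Dgcr8 and then in the cytoplasm by Dicer1, and the mature strand guides an Argonaute protein to messenger RNAs. The seed, bases 2 to 8 of the mature strand, sets most of the pairing with targets, so microRNAs that share a seed are placed in one family. Many hairpins lie in introns or exons of host genes, and mirtrons are hairpins whose end is formed by a splice site in place of a Drosha cut. In liver, miR-33 and miR-122 are known regulators of lipid metabolism, miR-21, miR-22, miR-29 and miR-34a are known from steatosis and fibrosis, and let-7 and miR-103 with miR-107 from glucose metabolism.

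The sequences below are a selection: members that share a seed with another liver or lipid microRNA or are described one by one further on, and the microRNA inside Scd2 and inside Fads1. They came from RefSeq (GRCm38.p6), which held a mature entry for 164 of the 172 members looked up there. They are printed 5′ to 3′ with the seed in capitals.
let-7c-5p (Mirlet7c-2, 9 peaks): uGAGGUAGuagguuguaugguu
let-7b-5p (Mirlet7b, 3 peaks): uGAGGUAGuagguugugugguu
let-7d-5p (Mirlet7d, 3 peaks): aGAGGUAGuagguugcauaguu
miR-98-5p (Mir98, 4 peaks): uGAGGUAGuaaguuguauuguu
miR-29a-3p (Mir29a, 11 peaks): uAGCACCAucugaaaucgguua
miR-29b-3p (Mir29b-1, 168 peaks, and Mir29b-2, 1 peak): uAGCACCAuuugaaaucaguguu
miR-30a-5p (Mir30a, 10 peaks): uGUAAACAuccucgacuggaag
miR-30c-5p (Mir30c-2, 7 peaks): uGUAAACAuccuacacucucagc
miR-103-3p (Mir103-1, 7 peaks, and Mir103-2, 2 peaks): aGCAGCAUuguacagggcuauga
miR-107-3p (Mir107, 1 peak): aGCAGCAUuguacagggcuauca
miR-21a-5p (Mir21a, 12 peaks): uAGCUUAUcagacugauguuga
miR-22-3p (Mir22, 12 peaks): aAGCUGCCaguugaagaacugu
miR-33-5p (Mir33, 6 peaks): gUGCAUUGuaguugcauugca
miR-5114 (Mir5114, 40 peaks): aCUGGAGAcggaagcugcaaga
miR-6993-5p (Mir6993, 17 peaks): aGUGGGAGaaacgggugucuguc

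Shared seeds were few among the members. Their 277 mature sequences held 260 distinct seeds, and GAGGUAG of the let-7 family was shared by 4 members with 19 peaks in all. The miR-29 seed AGCACCA was shared by 3 members with 180 peaks, of which 168 carried the name Mir29b-1. The seed GUAAACA was shared by Mir30a, Mir30c-2 and Mir384, with 19 peaks, among the members with an entry, which Mir30b and Mir30d do not have. The seed GCAGCAU was shared by Mir103-1, Mir103-2 and Mir107, with 10. Mir6993, inside Fads1, and Mir7008, inside the protein kinase gene Prkci, shared the 5p seed GUGGGAG.

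The peaks were spread unevenly over the members. The median was 3 peaks per gene (quartiles 1.75 and 7), the same median as over the whole gene table, and 44 genes had 1 peak each while 26 had 10 or more. Mir29b-1 and Mir101c together carried 23.6% of the peaks (21.3 to 26.0%), and the first 10 genes carried 47.6% (44.9 to 50.3%). Next in order came Mir7005 with 62 peaks, Mir704 with 59, Mir5114 with 40, Mir763 with 36, Mir6405 with 33, Mir6991 with 30, and Mir3075 and Mir7063 with 22 each. Mir6244 with 20, Mir6993 with 17, Mir1192 with 16, and Mir28b and Mir6950 with 15 each completed the 15 genes with the most peaks. Chromosome 6, which holds Mir29b-1 and Mir704, carried 20.8% of the microRNA-named peaks but 6.72% of all peaks, and chromosome 9, which holds Mir101c, carried 12.8% and 4.7%.

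**Figure D1:**
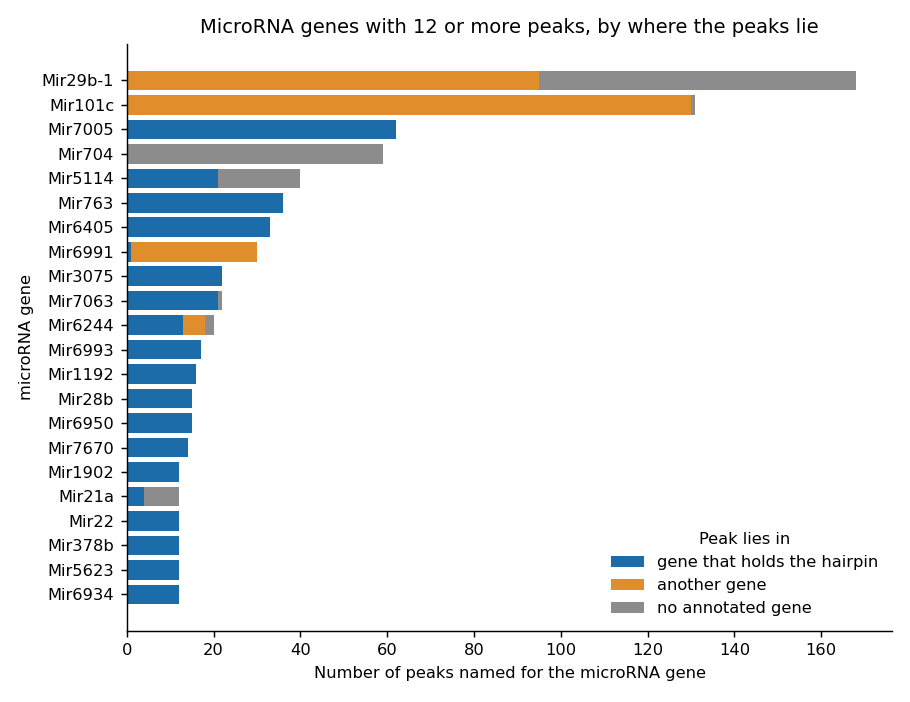
Number of peaks named for each microRNA gene with 12 or more of them (horizontal axis), split by where the peak lay: in the gene that holds the hairpin, in another annotated gene, or in none. Mir29b-1 (168 peaks), Mir101c (131) and Mir704 (59) had no peak in a gene that holds the hairpin, whereas all 62 peaks named for Mir7005 lay in its host Lama5.

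The list ran through the chromosomes 2 times, with 17990 peaks in each pass. What the passes stand for was not given in the sources used here, so they were not treated as replicates. Of the microRNA-named peaks 626 were in the first pass and 641 in the second, and together they covered 1180 distinct intervals. A peak of the other pass overlapped 37.7% of them (35.1 to 40.4%), against 32.5% (32.0 to 33.0%) of the 34713 peaks named for any other gene. The first pass named 158 of the microRNA genes and the second 146, and 128 genes were named in both.

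The name of a peak followed the nearest annotated transcript start, and this set how far from its hairpin a peak could lie. The median distance between peak and hairpin was 8276 bases and the largest was 205467 bases, for a peak named for Mir5623 in Atrnl1. Within 100 bases of the hairpin lay 75 peaks (5.92%) of 48 genes, within 1000 bases 230 peaks (18.2%) of 90 genes, and within 20000 bases 937 peaks (74.0%) of 157 genes. Upstream of the hairpin, along its strand, lay 587 peaks and downstream 642. Without Mir29b-1, whose peaks were all upstream, and Mir101c, whose peaks were all downstream, the counts were 419 and 511. Within 1000 bases, with both of these genes included, the counts were 89 upstream and 105 downstream.

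**Figure D2:**
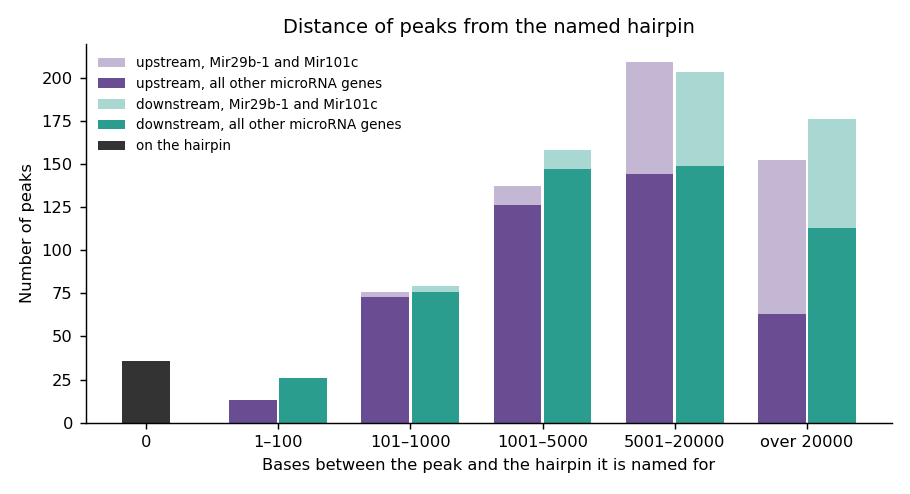
Number of microRNA-named peaks (vertical axis) by the number of bases between the peak and the hairpin it was named for (horizontal axis), with upstream and downstream bars and the peaks of Mir29b-1 and Mir101c in the paler shade. The 36 peaks on a hairpin were fewer than the peaks upstream or downstream in any distance class from 101 bases on, and the class from 5001 to 20000 bases held the most, 209 upstream and 203 downstream.

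Over the whole list, 74.3% of peaks overlapped the body of the gene they were named for, whereas 2.84% of the microRNA-named peaks did. A hairpin is of the order of a single bin of the peak caller, 100 bases, far shorter than the body of most genes. No comparison matched for length was made, so these shares are not like for like. Of the 176 hairpins, 87 lay in an intron of a gene on the same strand, 56 over an exon of one, 10 inside a gene on the opposite strand, and 23 in no other annotated gene. Where there was such a host, the peaks mostly lay in it. Hairpins in a sense intron had 490 peaks, 446 of them in the host, those over a sense exon 347 and 250, and those in a gene of the opposite strand 62 and 55. For 138 of the 153 hairpins with a host every named peak lay in the host, and for 7 none did. Of the peaks outside the gene that holds the hairpin, 302 (23.8%) lay in another gene and 214 (16.9%) in no annotated gene, and 861 (68.0%) lay in a protein-coding gene.

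The class of location in the deposited list differed between the microRNA-named peaks and the 34713 others. Distal intergenic peaks made up 19.7% of the former and 8.33% of the latter, a difference of 11.3 percentage points (Newcombe interval 9.2 to 13.6), and without Mir29b-1 and Mir101c the difference was 5.51 points (3.45 to 7.85). Intronic peaks made up 34.6% and 41.8%, a difference of -7.18 points (-9.8 to -4.47), and 36.1% of the former without these 2 genes. Where strength, −log10 of the p-value, was at least 5 the intronic share of the former was 18.4%. Of the 266 microRNA-named peaks at that limit, 95 were named for Mir101c. The intronic share of the 34713 others at that limit was not computed. Peaks in 3′ UTRs were 17.4% against 19.6%, but 22.8% without the 2 genes, so the sign of that difference turned on them. Peaks in 5′ UTRs were 0.316% against 2.94%. The share inside any annotated gene other than a microRNA was 83.1%, against 91.7% (91.4 to 92.0%) of the other peaks. Peaks of 1 gene or transcript are not independent, and part of the peaks were called in both passes, so all these intervals are too narrow.

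**Figure D3:**
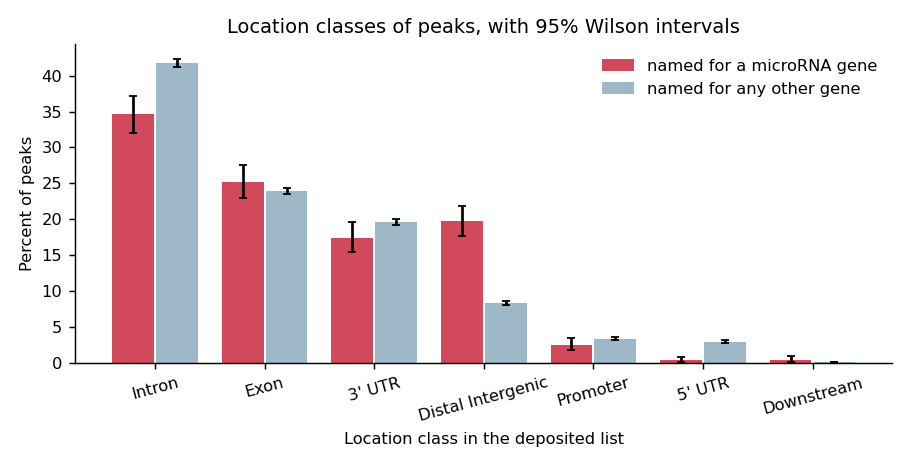
Percent of peaks (vertical axis) in each location class of the deposited list (horizontal axis), for the 1267 peaks named for a microRNA gene and the 34713 named for any other gene, with 95% Wilson intervals. Distal intergenic peaks made up 19.7% of the former and 8.33% of the latter, and intronic peaks 34.6% and 41.8%.

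Peak strength, taken from the p-value that the peak caller assigned, had a median of 3.73 in the microRNA-named peaks and of 3.64 (3.63 to 3.68) in the others, and 3.72 in the former without Mir101c. A strength of 5 or more was reached by 21% (18.8 to 23.3%) and 14.2% (13.8 to 14.5%), but by 15.1% (13.1 to 17.2%) of the microRNA-named peaks without Mir101c. The smallest p-value in the list, 5.23872e-15, was held by 385 peaks, of which 40 were named for a microRNA. Of these 40, 29 were named for Mir101c, 2 each for Mir3069, Mir5114 and Mir6516, and 1 each for Mir6356, Mir6390, Mir704, Mir7067 and Mir7079. The largest p-value, 0.000736488, was held by 278 microRNA-named peaks. Most peaks were narrow: 75.8% spanned a single bin of 100 bases, against 78.6% of the others.

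Of the 1174 microRNA hairpins in the annotation, 28, or 2.39%, were overlapped by any peak, whatever its name, and 26 of them were members with a peak of their own. The remaining hairpins were those of Mir5136, under a peak named for 5730408K05Rik, and Mir7090, in Ctnnb1, under a peak named for Ctnnb1 itself. Of the 28 hairpins, 24 lay wholly in a gene on the same strand. An exon of a gene on the same strand was touched by 16 of the 28, among them Mir8114, which the first exon of Glul covers only in part. In 10 of the 26 members a peak lay on the hairpin in both passes. The 36 peaks on hairpins had a median strength of 4.03 (3.52 to 5.05), against 3.73 for the 1035 peaks farther than 1000 bases away (3.7 to 3.73). Few of them were centred on the hairpin. Only 9 peaks, of 6 genes, held the whole of it, and the median peak held 39 of its bases.

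Some of these hairpins stood at a splice site. In 9 of the 26, an end of the hairpin lay within 5 bases of an exon edge of a gene on the same strand: Mir1982 in Oaz1, the gene of ornithine decarboxylase antizyme, Mir6921 in Srebf1, Mir6955 in Gga1, Mir6977 in Ptprs, Mir7005 in Lama5, Mir7008 in Prkci, Mir7030 in Rab35, Mir7033 in Pom121 and Mir7079 in the ribosomal protein gene Rpl13. In 8 of them the 3′ end of the hairpin met the start of an exon, as in a mirtron. All 12 peaks on these 9 hairpins also held exon bases, and exons filled a median of 79.5% of the peak. Over all 176 members the share of hairpins at an exon edge was 28.4% (22.3 to 35.5%), and over the 999 annotated microRNA genes without a named peak it was 17.3% (15.1 to 19.8%). The mature 3p strand ended in AG, the last bases of an intron, in 31 of the 43 members at an exon start with a 3p entry and in 9 of the 77 other members with one. Since the 43 were picked by their place at an exon start, this contrast describes the annotation and not the peaks.

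The peaks over Mir7008, Mir6921 and Mir6977 show how peak, hairpin and exon met, on the strand of the hairpin (GRCm38.p6, capitals mark hairpin bases). At Mir7008 the hairpin ended in CAG and the lower-case bases after it were the next exon. At Mir6977 the lower-case bases were the exon before the hairpin, which began at its edge, and at Mir6921 the exon in the peak was also the one before the hairpin, not the one at which the hairpin ends.
Mir7008, chr3:31039001-31039100, plus strand: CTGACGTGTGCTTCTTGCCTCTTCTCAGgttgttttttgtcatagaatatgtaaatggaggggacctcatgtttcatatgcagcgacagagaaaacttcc
Mir6921, chr11:60200601-60200700, minus strand: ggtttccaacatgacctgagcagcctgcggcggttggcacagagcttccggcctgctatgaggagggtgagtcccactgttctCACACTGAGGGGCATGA
Mir6977, chr17:56418901-56419000, minus strand: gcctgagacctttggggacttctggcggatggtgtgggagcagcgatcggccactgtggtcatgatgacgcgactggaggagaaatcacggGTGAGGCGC

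The Mir7079 peak was called in both passes, with p-values of 1.75465e-06 and 5.23872e-15, and held 43 of the 69 hairpin bases. The Mir7008 peak held 28 of 63 hairpin bases with a p-value of 0.000736488. The Mir6921 peak held 17 of 80 in both passes (0.000736488 and 0.000376653). The Mir6977 peak held 9 of 64 (0.000376653). At Mir7079 an annotated exon also spans the hairpin, and at Mir7008, Mir6921 and Mir6977 exons made up 66 to 91% of the bases of the peak. Rpl13 belongs to a family with many near-identical copies, so reads counted there may have been shared with them.

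Peaks that held whole or nearly whole hairpins were those of Mir125a, Mir22, Mir3069, Mir7653, Mir8114, Mir5114 and Mir5125. Mir125a, whose microRNA shares a cluster with Mir99b and Mirlet7e, had 1 peak, with a p-value of 0.000188707 and all 68 hairpin bases inside it. The hairpin lies over an exon of Spaca6. The Mir3069 hairpin lies inside both Snhg10, a host gene of small RNAs, and Scarna13, a guide RNA of Cajal bodies. Both Mir3069 peaks overlapped Scarna13 and had the smallest p-value in the list. Mir7653, in Tlcd1, had peaks of p-values 4.5764e-05 and 4.24163e-09. Mir8114 had a peak in the first pass only (0.000413628), which overlapped Teddm2 and Glul, the glutamine synthetase gene. Another peak over the same hairpin was named for Glul. In Srrm2, a gene for a spliceosome-associated protein, the Mir5125 hairpin was held whole by peaks of 500 and 400 bases with p-values of 0.00018687 and 0.000300977.

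The peaks over Mir125a, Mir22 and Mir29a are printed because in them the peak held most of the hairpin or, for Mir29a, about as many hairpin as flanking bases, with no exon edge at the hairpin's end (capitals mark hairpin bases, strand of the hairpin).
Mir125a, chr17:17830801-17831000, plus strand: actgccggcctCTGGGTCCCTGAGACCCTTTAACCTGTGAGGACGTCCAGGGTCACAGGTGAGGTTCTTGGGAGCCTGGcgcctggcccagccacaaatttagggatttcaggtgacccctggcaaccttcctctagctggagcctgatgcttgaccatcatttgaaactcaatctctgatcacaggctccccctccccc
Mir22, chr11:75463701-75463800, plus strand: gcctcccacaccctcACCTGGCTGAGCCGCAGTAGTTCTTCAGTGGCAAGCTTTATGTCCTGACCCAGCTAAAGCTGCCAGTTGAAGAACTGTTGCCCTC
Mir29a, chr6:31062701-31062800, minus strand: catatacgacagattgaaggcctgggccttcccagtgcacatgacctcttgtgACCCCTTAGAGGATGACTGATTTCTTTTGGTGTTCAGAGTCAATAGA

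The other hairpins with a peak were Mir21a, Mir1893 in Epc1, Mir1894 in Ppp1r10, Mir1938 in Ifrd1, Mir3064 in Ddx5, Mir5113 in Tnrc6b, Mir682 in Gm4149, Mir7677 in Itpr3, and Mir703. Ddx5 encodes an RNA helicase that works with Drosha. All 6 peaks named for Mir3064 lay in Ddx5, and the peaks on the hairpin, of 400 and 300 bases, held 8 of its 67 bases. The strongest Mir3064 peaks, with p-values of 1.55839e-12 and 1.17517e-08, lay 593 bases downstream of the hairpin in the 3′ UTR. The Mir1982 hairpin had 4 of its 74 bases in a peak, with p-values of 8.97631e-06 and 5.87583e-08 in the passes. The Mir5113 peak in Tnrc6b, a partner of Argonaute, held 62 of 82 hairpin bases (0.000376653). The Mir682 peak lay over Gm4149, a processed pseudogene, an exon of which covers the hairpin. Reads counted there may have been shared with other copies, which was not tested.

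Among liver and lipid microRNAs, 21 of 45 listed genes, 46.7% (32.9 to 60.9%), had a named peak, against 175 of the 1174 annotated microRNA genes (14.9%). The list was chosen with earlier results known, so this is a description. Of their 276 peaks 168 were named for Mir29b-1. Peaks overlapped the hairpins of 3, Mir21a, Mir22 and Mir29a, or 6.67% (2.29 to 17.9%), against 2.39% of the 1174 annotated hairpins. Mir122, the most abundant microRNA of hepatocytes, and Mir192, Mir148a and Mir223 had none. Mir122 and Mir378a lie on chromosome 18. Mir103-1, Mir103-2 and Mir107 are hosted by the pantothenate kinase genes Pank3, Pank2 and Pank1 and had 7, 2 and 1 peaks, all in the host and none within 1000 bases of the hairpin. Mir30d had 7 peaks, all in Gm20732, and Mir26b had 3 in its host Ctdsp1. Mir30b had 2 peaks, both 27215 bases from the hairpin and in Gm10240, a processed pseudogene, with a median strength of 10.21. A median of 93.9% of the bases of these Mir30b peaks was repeat-masked, so their position is uncertain. Mir23a had 5 peaks and Mir34a 5, the nearest of them 5318 and 246 bases from the hairpin. Mir101b, Mir194-2 and Mir29b-2 had 1 peak each, at 24726, 2743 and 2240 bases. The Mir101b peak lay in Gm5518, also a processed pseudogene, and was wholly repeat-masked.

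Mir21a lies over the last exon of Vmp1, which encodes a membrane protein needed for autophagosome formation (chr11:86584067-86584158, minus strand). Its 12 peaks were shared equally by the passes. In the first pass the peak over the hairpin had a p-value of 8.97631e-06 and in the second 0.000376653, and both held 34 of the 92 hairpin bases at its 3′ side. A wide peak began 143 bases upstream in the first pass (1000 bases, 2.88623e-05) and 243 bases upstream in the second (900 bases, 6.62566e-05), inside the 3′ UTR of Vmp1. The 8 remaining Mir21a peaks lay downstream, between 767 and 1967 bases past the hairpin and beyond the annotated end of Vmp1. Of 10 peaks over Vmp1, 6 were named for Vmp1 and 4 for Mir21a.

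Mir22 lies over an exon of its host RNA Mir22hg (chr11:75463716-75463810, plus strand), which overlaps the coding gene Tlcd2 on the same strand, and all 12 of its peaks were inside both. The peak over the hairpin was called in the second pass (0.000188117) and held 85 of 95 bases. Stronger peaks lay downstream: at 1391 bases in the first pass (300 bases wide, 2.09385e-05) and at 591 bases (400 bases wide, 2.32123e-05) and 1491 bases (200 bases wide, 2.14718e-05) in the second. Mir22hg named none of the 17 peaks over it.

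Mir29a and Mir29b-1 are made from one primary transcript, whose gene lies at chr6 on the minus strand, with hairpins at 31062660-31062747 and 31063023-31063093. The strongest Mir29a peak, of the second pass, lay between them, 54 bases upstream of the Mir29a hairpin (2.4663e-08), and the neighbouring peak of the first pass covered 47 of its 88 bases (8.97631e-06). The 9 other Mir29a peaks lay downstream, the farthest at 6860 bases, and none of the 11 was in an annotated gene. All 168 Mir29b-1 peaks lay upstream of its hairpin, from 108 to 51808 bases, and none touched it. Of these, 167 took the name through Gm27019, a long non-coding RNA that starts just upstream of the hairpin. Lncpint, a long non-coding RNA induced by p53, held 93 of the Mir29b-1 peaks, and 73 lay in no annotated gene. Lncpint itself named 41 of the 134 peaks over it and Mir29b-1 69.4% of them. The 2 peaks in Gm27019 itself lay 108 and 308 bases from the Mir29b-1 hairpin.

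Mirlet7c-2 and Mirlet7b lie in Lncppara, a non-coding RNA gene. Their 9 and 3 peaks lay on both sides of the hairpins without touching them, and 1 Mirlet7b peak was past the end of Lncppara. The nearest Mirlet7c-2 peak began 4 bases past the hairpin (5.87583e-08, first pass), and the nearest Mirlet7b peak lay 119 bases upstream in both passes (0.000736488 and 3.99162e-06). Of 176 peaks over Lncppara, 165 were named for it and 11, 6.25%, for these microRNAs. Mirlet7d had 3 peaks, all in the non-coding gene 6720427I07Rik and all at the largest p-value, 0.000736488. The cluster partners Mirlet7f-1 and Mirlet7a-1 had none. Of the 20 clusters with a member, in which hairpins stood within 10000 bases of each other on one strand, 16 had peaks named for 1 gene only, and 24 of their 50 genes had any.

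**Figure D4:**
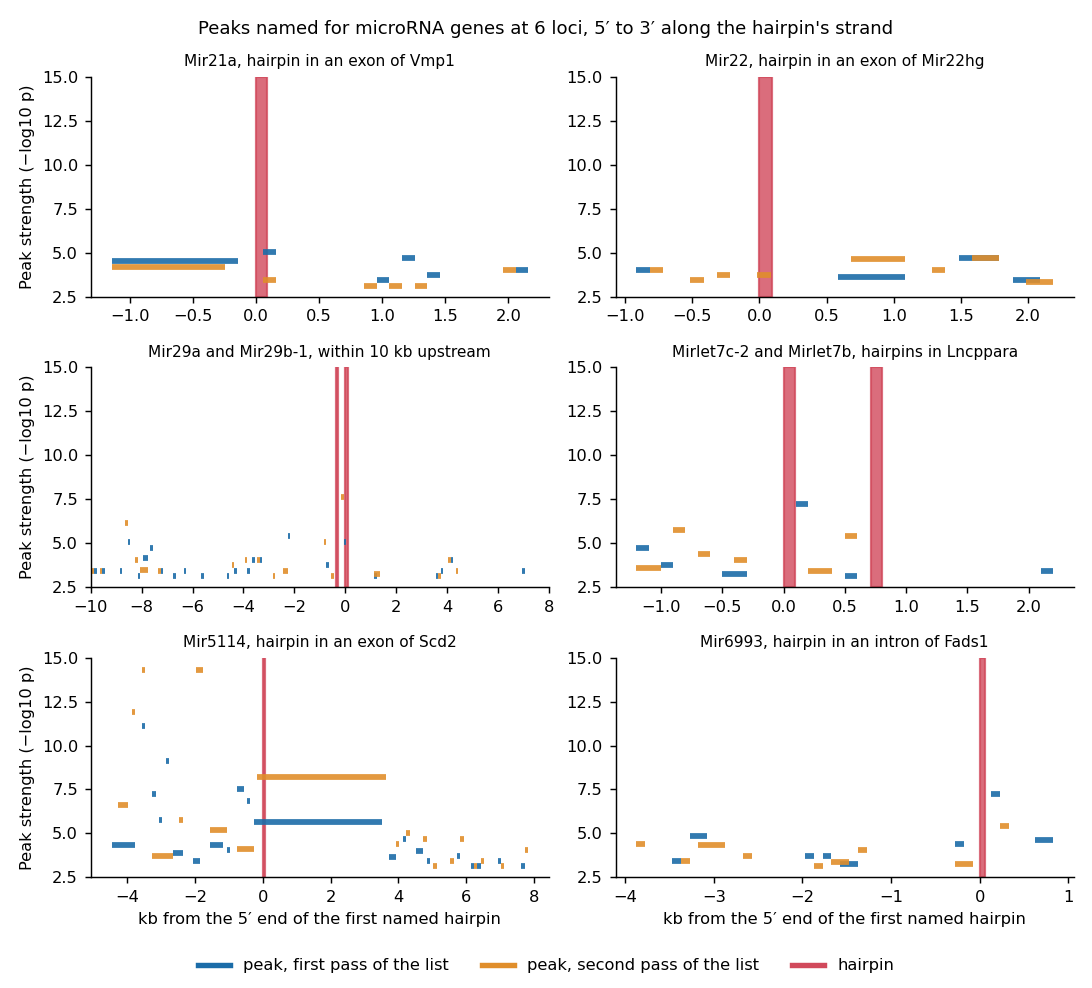
Peaks named for microRNA genes at 6 loci, by distance in kb from the 5′ end of the first named hairpin along its strand (horizontal axis) and by strength, −log10 of the p-value (vertical axis). Blue and orange bars are peaks of the first and second pass, with their true width, and red bands are hairpins. Peaks touched the hairpins of Mir21a, Mir22, Mir29a and Mir5114, flanked those of Mirlet7c-2, Mirlet7b and Mir6993 without touching them, and at Mir29b-1 lay only upstream.

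The share of peaks that carried a microRNA name differed among the lipid genes, from 11.9% over Srebf1 to 55.3% over Scd2. Mir5114 lies over the last exon of Scd2, a stearoyl-CoA desaturase (chr19:44303171-44303231, plus strand), and both of the widest microRNA-named peaks, each of 3800 bases, covered its hairpin, with p-values of 2.40869e-06 in the first pass and 5.84436e-09 in the second. Exons made up 97.4% and 100% of these peaks. Of the 40 Mir5114 peaks, 21 lay in Scd2 and 19 past its annotated end. Of the 38 peaks over Scd2, 17 were named for Scd2 and 21, 55.3%, for Mir5114. Scd2 has close relatives in the same chromosomal region, among which reads may have been shared.

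Mir6993 lies in an intron of Fads1, which encodes a fatty acid desaturase (chr19:10191375-10191439, plus strand). All 17 of its peaks lay in Fads1 and all were classed as intronic, from 62 to 3775 bases from the hairpin. The strongest Mir6993 peak began 62 bases past the hairpin (5.87583e-08, first pass). Fads1 named 26 of the 43 peaks over it and Mir6993 the other 17, or 39.5%. Mir6921 lies in Srebf1, which encodes the sterol response factor of fatty acid synthesis. It named 5 of the 42 peaks over Srebf1, 11.9%, and 6 peaks in Rai1, the next gene. Mir33 lies in an intron of Srebf2, which encodes the sterol response factor of cholesterol synthesis. Its 6 peaks were all downstream in Srebf2, and the nearest stood 11 bases past the hairpin in both passes (0.000188117 and 0.000376653). Mir33 named 28.6% of the 21 peaks over Srebf2.

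Other hosts also had many of their peaks under a microRNA name. Lama5, a laminin chain of basement membranes, had 87 peaks, of which 62, 71.3%, were named for Mir7005, with 51 of the 62 classed as exonic. Hmga2, a chromatin protein of growing cells, had 49 peaks, of which 36 were named for Mir763, all of them intronic, and 4 for Hmga2. Klf9, a transcription factor induced by glucocorticoids, had 23, of which 16 were named for Mir1192. Ap2a2, a subunit of a clathrin adaptor, had 39 peaks, of which 21 were named for Mir7063 and 1 for Ap2a2. Pax2 had 92 peaks, with 33 named for Mir6405, all intronic, and Zmiz1 77, with 22 named for Mir3075. All 30 Mir6991 peaks lay in Rtn3, which had 73 peaks. The hairpin itself lies outside Rtn3, in an intron of 2700081O15Rik on the opposite strand. Mir6244 stands antisense to Zc3h12c, which held 13 of its 20 peaks, and with no strand in the list the source strand of these peaks could not be told. Mir6950 named 15 of the 25 peaks over Loxl2, a lysyl oxidase of the extracellular matrix.

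**Figure D5:**
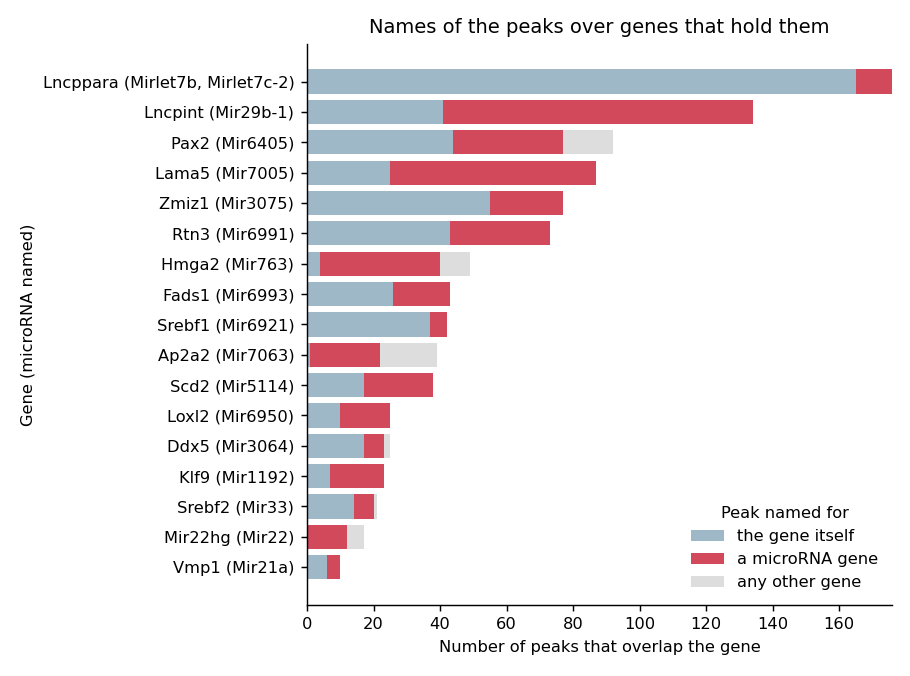
Number of peaks that overlapped each gene (horizontal axis), split by the name they carried: the gene itself, a microRNA gene (given in brackets) or any other gene. The microRNA carried 62 of 87 peaks over Lama5, 93 of 134 over Lncpint and 21 of 38 over Scd2, but 5 of 42 over Srebf1 and 11 of 176 over Lncppara.

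The peaks of Mir101c and Mir704, chosen here for their number, were searched for repeated words. The 131 Mir101c peaks covered 99 intervals of a stretch of 38100 bases at chr9:3000001-3038100, at the start of the assembled chromosome, and the hairpin lay beyond its end. The median interval was wholly repeat-masked (100%). Strength reached 5 in 72.5% of the Mir101c peaks (64.3 to 79.4%), and the median was 6.86. Gm26870, a long non-coding gene that spans the stretch, held 130 of them, and Gm10717, one of several predicted coding genes inside it, held 30. The most frequent word of 20 bases was in 59 of the 99 intervals and stood 130 times in the stretch, at a median spacing of 234 bases. Reads from such copies may not be placed uniquely, which was not tested, so the position of these peaks is uncertain. Repeat-masked bases made up 24.6% of the sequence of microRNA-named peaks, 13.4% without Mir101c, and 18.1% of the other peaks. This word is printed with the most frequent one among the Mir704 intervals, on the plus strand.
Mir101c word: ttcacgtttttcagtgattt
Mir704 word: ccacagctctgcttttcttt

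The 59 Mir704 peaks covered 53 intervals in 35100 bases at chr6:47738001-47773100, all in no annotated gene and 30476 to 65476 bases downstream of the hairpin, which lies over an exon of Pdia4, a disulfide isomerase of the endoplasmic reticulum. Their median interval was masked over 20.5% of its bases. The Mir704 word above was in 12 of 53 intervals, so most did not hold it. The strongest Mir704 peaks had p-values of 5.23872e-15 and 1.05065e-13, both of the second pass. The genes for the Y RNAs Rny3 and Rny1 stand between the stretch and Pdia4.

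The study names a pair of hexamers as Usp39 binding elements, which it found by a motif search in the RIP-seq peaks themselves. Both were counted on both strands in DNA letters, and their presence in these peaks is therefore no independent evidence. The first of them, GGCCAC, was searched in every peak. It was in 10.8% of the microRNA-named peaks (9.22 to 12.6%) and in 9.58% of the others (9.27 to 9.89%). Without Mir704 the share in the microRNA-named peaks was 9.93% (8.37 to 11.7%). GGCCAC was in 28.8% of the Mir704 peaks and none of those of Mir101c. The other hexamer, GCCATA, was in 12% (10.3 to 13.9%) against 4.17% (3.97 to 4.39%), but of the 152 microRNA-named peaks that held it 110 were named for Mir101c, where it was in 84.0% of the peaks. In the remaining members it was rarer, with 7 of 168 in the case of Mir29b-1.

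Some names came through a transcript of another gene, which was so for 187 peaks of 10 microRNA genes. Besides the 167 of Mir29b-1, these included 4 Mir6516 peaks named through Snhg20 or the small RNA gene Gm26083 inside it, 4 Mir30c-2 peaks named through Gm27028, and 4 Mir692-2 peaks, which all lay over ferritin light chain pseudogenes. For 2 of the Mir692-2 peaks the hairpin of that name lies on another chromosome. The Mir6516 peaks that overlapped Gm26083 had the smallest p-value in both passes and lay 48 bases from the hairpin without touching it. Mir6953, in Grina, had 6 peaks, all within 1000 bases of the hairpin, with a smallest p-value of 6.79861e-15 and a widest peak of 800 bases.

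Genes of the microRNA pathway carried peaks of their own. Of 28 listed genes 15, 53.6% (35.8 to 70.5%), had a named peak, with 205 peaks in all, where 20.4% of the 22028 annotated protein-coding genes did. The list was chosen with earlier results known and its genes are widely expressed, so the share is a description. The GW182 proteins that recruit repressors to Argonaute had 43 peaks under the name Tnrc6a, 39 under Tnrc6b and 18 under Tnrc6c. By position, 43, 47 and 19 peaks lay over these genes. Ago2 named 18 peaks and had 32 over it, and the helicases Ddx5 and Ddx17 named 17 and 14 and had 25 and 22. Hnrnpa1 and Khsrp, RNA-binding proteins that aid the processing of some primary microRNAs, named 17 and 16. Dicer1 and Tarbp2 named 1 each. Drosha, Dgcr8, Xpo5 and the other Argonautes had none.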

How the data were processed

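RNA from 1 Input and 1 IP library of AML12 cells was sequenced, and the authors deposited 1 peak list and 1 gene table, with 6 columns used here that name no sample. The authors trimmed reads with Trim Galore 0.6.1, checked them with FastQC 0.11.9, removed ribosomal RNA with Bowtie 1.2.3, aligned to mm10 with HISAT2 and called peaks with Piranha, and the deposited p-values are those of that caller, in bins of 100 bases. Peaks were named for the gene of the nearest transcript start. The Input's part in the calls was not given in the sources used here. Depth is unknown, because the list holds no counts.

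The members and the gene lists were chosen with earlier results of these data known. Peaks were overlapped (at least 1 base) with GENCODE vM21 genes and exons with Python 3.11.15, pandas 2.3.3, numpy 2.4.6, scipy 1.17.1 and pysam 0.24.0, and figures drawn with matplotlib 3.10.9. Strength is −log10 of the deposited p-value, computed here. Shares carry 95% Wilson intervals, differences of shares Newcombe intervals and medians order-statistic intervals. With 1 library per group no test was made. The overlap and interval code was tested on simulated data. Sequences came from RefSeq (GRCm38.p6), and those of the 4 members on chromosome 18 and of peaks in UTRs are not reported. Also not reported here are 1 host gene and the sequence of 1 other peak.

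Named in the text are the 15 microRNA genes with the most peaks, those with a peak on the hairpin, those of the 10 smallest p-values and the 5 widest peaks, liver and lipid microRNAs with a peak, the 10 genes that hold the most microRNA-named peaks, the hosts of these microRNAs, and the 8 pathway genes with the most peaks. Mir5623, Mir692-2 and the other names outside this rule were chosen after their values were seen. Alternatives were each interval counted once, the first pass alone, p-values of 1e-05 or less, exclusion of the 10 members with most peaks or of Mir29b-1 and Mir101c, a hairpin widened by 1000 bases, coding genes only, own overlap for introns, equal weight per gene, single-bin peaks and at least 2 peaks per gene.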

Additional observations from a re-analysis of the deposited data

How the results depend on the processing

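Leaving out the 10 microRNA genes with the most peaks moved the share of peaks on the named hairpin from 2.84% to 4.97%, the share inside another annotated gene from 83.1% to 90.8%, the intronic share from 34.6% to 31.3% and the median strength from 3.73 to 3.50. With p-values of 1e-05 or less alone, the hairpin share was 4.51%, the intronic share 18.4% and the median strength 6.86, which that limit raises by construction, and 55 of the 176 microRNA genes were left. Of the 266 peaks within that limit, 95 were named for Mir101c. With 1000 bases added on each side of the hairpin its share was 18.2%, with coding genes only the in-gene share was 68%, and the intronic share was 37.6% by own overlap with the annotation and 25.7% with equal weight per gene. Without Mir29b-1 and Mir101c, an alternative chosen after seeing the data, the in-gene share was 85.5%. The cause of the other shifts was not tested. Counting each interval once or using the first pass alone moved the shares by less than their intervals. No paired analysis was possible because each group had 1 library and the columns name no sample. Depth is unknown, the list gives no strand, and repeated sequence leaves the place of the Mir101c peaks uncertain.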

Other observations

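Among the 176 microRNA genes, 25 had every named peak classed as intronic and 35 had every named peak in a 3′ UTR. As 44 of the 176 genes had 1 peak each, some of these genes were counted on a single peak. The same shares over the whole gene table were not computed, so the counts are not a trait of microRNA genes. Hipk3, which encodes a homeodomain-interacting protein kinase, had 16 peaks, of which 12 were named for Mir1902, and Tbc1d16 had 15, of which 12 were named for Mir6934. Mir30a, whose hairpin lies in no other annotated gene, had 10 peaks between 1269 and 15069 bases from it.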
